A study of Mus musculus with 3 samples.

Results

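The genes described here encode the subunits of the mitochondrial oxidative phosphorylation system that are carried in the nuclear genome. They were chosen by name: every gene model whose name starts with Nduf, Sdha, Sdhb, Sdhc, Sdhd, Uqcr, Atp5, Cox4, Cox5, Cox6, Cox7 or Cox8, without the assembly factors called Ndufaf or Sdhaf, repeated names and pseudogenes. The rule used names only and no measured value, although it was chosen with earlier results of these data known. It took 86 of 22658 gene models: 36 of complex I, 4 of complex II, 8 of complex III, 20 of complex IV, 15 of complex V and 3 that carry such a name but encode no subunit. Those 3 are Cox4nb, Atp5s and Atp5sl, which RefSeq now calls Emc8, Dmac2l and Dmac2. No model lay on the mitochondrial chromosome, so the subunits that mitochondrial DNA encodes are not described. A gene counted as measured where its mean level over the libraries was at least 0.5 RPKM (reads scaled to the length of the gene model and to the library's total) and its model at least 300 bp long. This held for 7915 genes, 73 of them in the group: 33 of complex I, 4 of complex II, 8 of complex III, 12 of complex IV, 15 of complex V and Cox4nb.

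The cells were NB490, a mouse pancreatic cancer line made to carry a PDX1 shRNA that doxycycline switches on. PDX1 is a homeobox transcription factor of pancreas development. RNA synthesis was read with Bru-seq, in which cells take up bromouridine for 30 min at 2 mM and the labelled RNA is captured by antibody and sequenced, so that the reads report recent transcription and not stored RNA. The 3 libraries came from uninduced cells (0 h of doxycycline), from cells after 48 h of doxycycline and from grown-out cells kept in doxycycline for more than 3 weeks. All of them carried the hairpin construct and had been selected with puromycin, and the labels do not say whether the line was 1 clone. Each condition had 1 library, so nothing was replicated, no test could be run, and a difference is one between libraries. Doxycycline, an antibiotic that can inhibit protein synthesis inside mitochondria, was in the medium of both induced cultures. No doxycycline-treated cells without the hairpin are analysed here, so an effect of the drug and one of the hairpin cannot be told apart.

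Oxidative phosphorylation takes electrons from NADH through complex I and from succinate through complex II to ubiquinone, then through complex III and cytochrome c to oxygen at complex IV. The protons pumped on the way drive ATP synthase, complex V. All complexes but complex II combine nuclear subunits with a few encoded by mitochondrial DNA, and the nuclear genes are known to be driven by factors such as NRF1, the ETS protein GABP and YY1, and by co-activators of the PGC-1 family.

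RPKM values rest on totals of 51006774 reads (uninduced), 48418864 reads (48 h) and 41632296 reads (grown-out). These totals were worked back from the deposited counts, lengths and RPKM values, as the median over genes. Pdx1, the hairpin's target, had 1.05 RPKM at 48 h against 1.59 RPKM in uninduced cells, which was 1.51-fold lower (95% counting interval 1.28 to 1.77). In grown-out cells it had 1.42 RPKM, and there the interval of the fold included no change. A hairpin acts on finished mRNA, so these levels of new RNA do not check it. Of 11 pancreatic duct markers, 8 were measured, Epcam and Sox9 lay below the minimum and Cldn7 was at 0 in every library. The summed level of the duct list was 157 RPKM in uninduced, 90.2 RPKM in 48 h and 87.4 RPKM in grown-out cells, most of the difference being Spp1, with 98.6, 40.0 and 32.3 RPKM in that order. No acinar, endocrine, fibroblast or endothelial marker was measured, and of the immune list 2 genes were, Cd68 and Cd14, with the list's sum at 2.42, 1.37 and 1.37 RPKM. The part of these shifts in the results below was not tested. In such bulk libraries, fewer cells transcribing a gene and less transcription per cell cannot be told apart.

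Promoter sequence was in the RefSeq table (build GRCm38.p6) for 70 of the 86 members, as 300 bases from 250 before to 50 after the gene's start. The promoters of the 5 members that were called higher at 48 h are shown, since they carry the largest differences at 48 h, together with that of Sdhd, whose neighbour is described in the closing section. Letters were searched on both strands for an NRF1 core (GCATGCGC), an ETS core (CCGGAAG), a YY1 core (AAGATGGCG) and a cAMP response element (TGACGTCA). Capitals mark a match. The first core and its reverse complement overlap in Atp5k, and a match is a description of letters and not of binding.
Atp5g1, chr11:96075582-96075881, minus strand: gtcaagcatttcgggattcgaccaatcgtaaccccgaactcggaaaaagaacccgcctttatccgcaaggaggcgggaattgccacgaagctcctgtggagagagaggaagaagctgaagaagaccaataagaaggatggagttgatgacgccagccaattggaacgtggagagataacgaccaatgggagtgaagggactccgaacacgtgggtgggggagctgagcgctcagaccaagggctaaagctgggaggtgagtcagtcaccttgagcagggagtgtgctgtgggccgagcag
Ndufa1, chrX:37191189-37191488, minus strand: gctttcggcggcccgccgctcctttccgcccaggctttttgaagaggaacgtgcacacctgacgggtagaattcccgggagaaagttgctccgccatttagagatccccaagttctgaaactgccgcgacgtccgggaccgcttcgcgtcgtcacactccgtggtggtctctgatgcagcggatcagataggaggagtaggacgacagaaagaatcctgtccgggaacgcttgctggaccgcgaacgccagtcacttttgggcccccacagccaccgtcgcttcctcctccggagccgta
Uqcr10, chr11:4704295-4704594, minus strand: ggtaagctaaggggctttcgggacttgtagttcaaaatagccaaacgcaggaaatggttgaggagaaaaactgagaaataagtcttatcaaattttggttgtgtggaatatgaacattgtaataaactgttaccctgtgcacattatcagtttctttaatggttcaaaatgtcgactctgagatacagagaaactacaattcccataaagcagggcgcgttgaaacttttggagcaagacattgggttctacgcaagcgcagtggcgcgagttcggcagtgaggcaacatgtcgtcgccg
Ndufb8, chr19:44555393-44555692, minus strand: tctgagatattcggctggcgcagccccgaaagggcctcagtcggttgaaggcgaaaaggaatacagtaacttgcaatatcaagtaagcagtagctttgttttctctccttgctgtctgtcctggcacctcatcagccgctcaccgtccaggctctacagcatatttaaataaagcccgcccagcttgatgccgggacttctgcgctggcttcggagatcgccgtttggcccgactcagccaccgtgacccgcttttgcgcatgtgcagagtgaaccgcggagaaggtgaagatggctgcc
Atp5k, chr5:108434350-108434649, minus strand: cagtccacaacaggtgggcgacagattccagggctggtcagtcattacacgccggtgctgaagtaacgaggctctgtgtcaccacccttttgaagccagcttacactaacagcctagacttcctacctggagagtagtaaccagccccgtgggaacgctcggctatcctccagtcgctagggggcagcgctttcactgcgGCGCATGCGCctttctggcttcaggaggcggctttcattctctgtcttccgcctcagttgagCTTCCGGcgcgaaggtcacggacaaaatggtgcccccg
Sdhd, chr9:50603800-50604099, minus strand: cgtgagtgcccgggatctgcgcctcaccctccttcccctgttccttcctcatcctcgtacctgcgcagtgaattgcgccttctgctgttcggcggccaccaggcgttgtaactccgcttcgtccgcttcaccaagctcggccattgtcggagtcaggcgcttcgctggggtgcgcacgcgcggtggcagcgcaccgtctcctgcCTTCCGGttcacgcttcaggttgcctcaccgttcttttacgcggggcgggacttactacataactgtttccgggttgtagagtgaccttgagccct
Among the 5, the letters of these motifs occurred in the Atp5k window alone, where the NRF1 core and an ETS core both stood. Over the 66 promoters of 61 measured members, the NRF1 core was in 13.6%, against 6.15% of promoters of all measured genes and 2.71% of all promoters in the table. The YY1 core was in 9.09% of the members' promoters, against 3.72% for measured genes and 1.4% for the whole table. Shares for the ETS core were 24.2%, 20.6% and 8.86%, and those for the cAMP response element 4.55%, 3.39% and 1.79%. For 48 h against uninduced cells, the median log2 ratio was 0.17 over the 9 members with the NRF1 core and 0.11 over the 52 with a promoter but without it. With and without the ETS core it was 0.15 (16 genes) and 0.09 (45 genes), with and without the YY1 core 0.10 (6 genes) and 0.11 (55 genes), and with and without the cAMP response element 0.21 (3 genes) and 0.11 (58 genes).

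The nascent level of the measured members was low to moderate and close between the libraries. Their median was 2.47 RPKM in uninduced, 2.80 RPKM in 48 h and 2.63 RPKM in grown-out cells, beside 1.641, 1.601 and 1.641 RPKM over all measured genes. Together they took 0.246% of the reads in gene models in uninduced cells, 0.272% at 48 h and 0.252% in grown-out cells. The share was thus highest at 48 h, with exact binomial 95% intervals of 0.244 to 0.247%, 0.270 to 0.273% and 0.2501 to 0.2535% in that order of libraries. The members ran on 19 chromosomes, and their models were short, with a median length of 7495 bp against 21790 bp for all measured genes. Accordingly they had fewer reads each, a median of 882, 1002 and 777 reads against 2038, 1896 and 1667 reads.

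**Figure D1:**
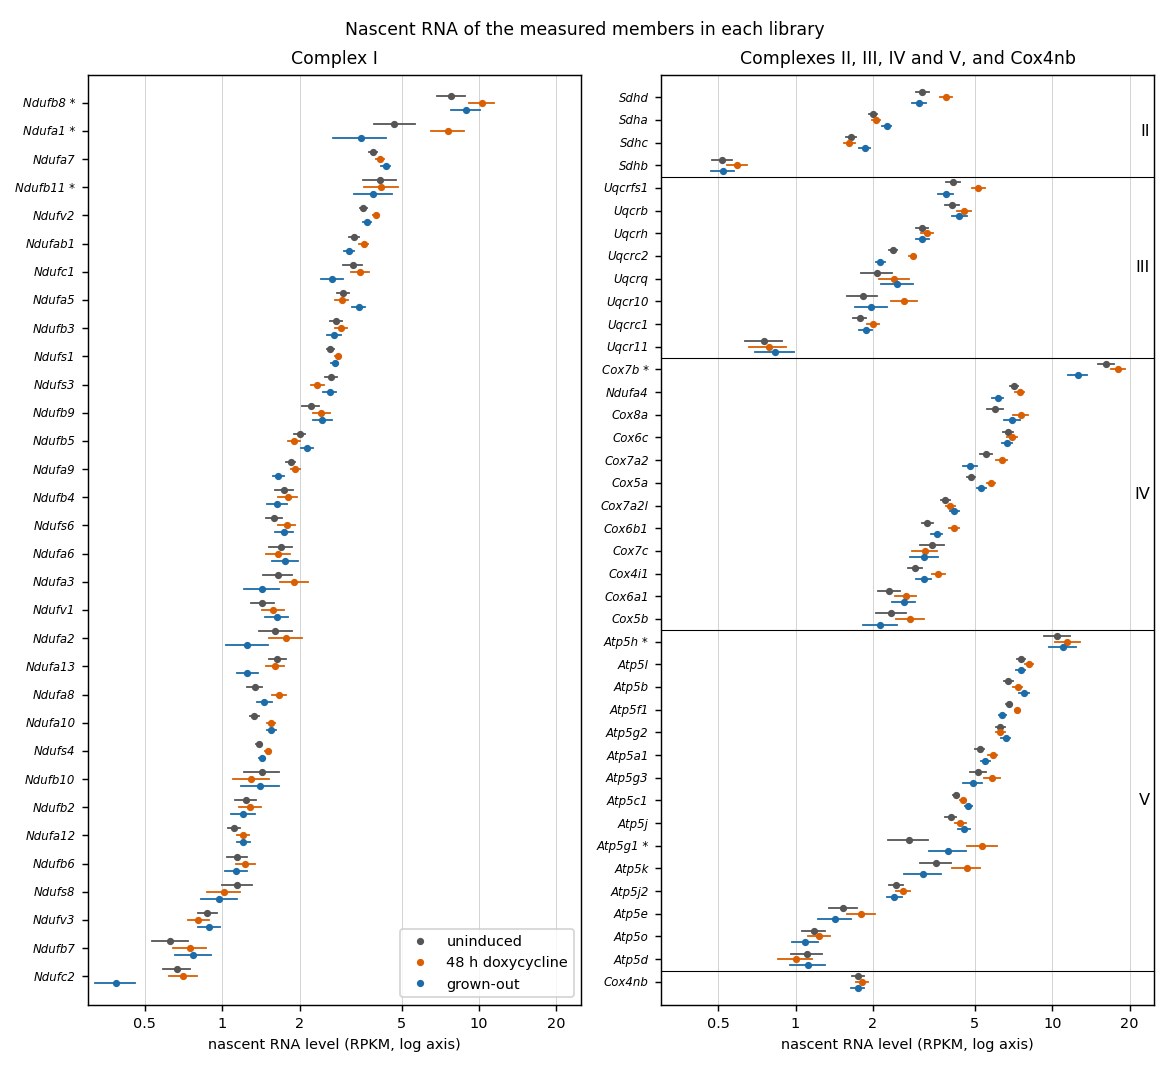
Nascent RNA level (RPKM, log axis) of 72 of the 73 measured members, 1 row per gene, with grey, orange and blue points for the uninduced, 48 h and grown-out libraries and bars for exact Poisson 95% intervals, which cover counting error only; an asterisk marks a model whose deposited length is under 0.9 of its span. Within most genes the 3 points lie close together, while genes of different complexes spread from about 0.5 RPKM for Sdhb to 16.2 RPKM for Cox7b in uninduced cells.

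Levels differed far more between members than between libraries. Cox7b, a small subunit of cytochrome c oxidase, stood highest, with 16.2 RPKM in uninduced, 18.1 RPKM in 48 h and 12.6 RPKM in grown-out cells. The next were Atp5h, of the stalk of ATP synthase, with 10.5, 11.4 and 11.02 RPKM, and Ndufb8, of the membrane arm of complex I, with 7.78, 10.3 and 8.86 RPKM. Each of these models has a deposited length far below its span, as described further on, so their values per length are not on the same footing as the rest. Among subunits measured over at least 0.9 of their span, Atp5l, a membrane subunit of ATP synthase, was the highest, with 7.56, 8.13 and 7.53 RPKM. Atp5b, the catalytic beta subunit, followed it with 6.75, 7.34 and 7.76 RPKM.

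At the low end stood Sdhb, the iron-sulfur subunit of succinate dehydrogenase, with 0.52 RPKM in uninduced, 0.59 RPKM in 48 h and 0.52 RPKM in grown-out cells. Ndufc2 of complex I had 0.67, 0.71 and 0.39 RPKM, and Ndufb7 had 0.63, 0.75 and 0.77 RPKM. Uqcr11 of complex III had 0.75, 0.78 and 0.83 RPKM, and Ndufv3 had 0.88, 0.81 and 0.89 RPKM. Of these lowest members, Ndufc2 alone differed from uninduced cells by more than 1.3-fold. By complex, the median level in uninduced cells was 1.65 RPKM for complex I and 1.83 RPKM for complex II. It was 2.23 RPKM for complex III, 4.32 RPKM for complex IV and 4.21 RPKM for complex V, and complexes IV and V also held the highest medians in the other libraries.

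After 48 h of doxycycline the members' transcription was slightly higher than in uninduced cells. The log2 ratio of RPKM plus 0.05 had a median of 0.12 over the 73 measured members, against 0.003 over all measured genes, and it was above 0 for 62 members. For 35 members the fold was higher with a counting interval that excluded no change, while this held for 30.1% of all measured genes. Ndufs3 alone was lower beyond counting error, where 30.0% of all genes were. Pooled over the members, 102763 reads at 48 h and 99410 reads in uninduced cells gave a fold of 1.09 after scaling to the library totals (1.08 to 1.10, counting error only). A gene was called where the log2 ratio also passed 1.3-fold. This took 5 members, all higher, namely Atp5g1, Ndufa1, Uqcr10, Ndufb8 and Atp5k, while 1.82% of all measured genes were called higher. No member was called lower, against 7.63% of all genes, although Ndufs3 was lower by less than that fold.

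In grown-out cells the members lay close to the uninduced level. The median log2 ratio against uninduced cells was 0.02, against 0.008 over all measured genes. Beyond counting error 14 members were higher and 11 lower, shares of 19.2% and 15.1%, where 33.6% and 29.5% of all measured genes were. Atp5g1 alone was called higher (4.6% of all genes were), and Ndufc2 and Ndufa1 were called lower (7.3% of all genes). For Ndufa1 the interval of the fold lower, from counts rounded to whole reads, only just excluded no change (1.002 to 1.847). Pooled reads gave a fold of 1.03 (1.02 to 1.04).

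Against the 48 h library the grown-out cells were lower. This comparison shares its libraries with the other 2 and is not independent of them. The median log2 ratio was -0.09, against 0.009 over all measured genes. Beyond counting error 6 members were higher and 30 lower, where 35.6% and 32.0% of all genes were. No member was called higher (9.78% of all genes), and 12 were called lower (6.04% of all genes). Pooled, the reads of the members were 1.06-fold lower in grown-out than in 48 h cells (1.05 to 1.07). The library with the highest level was the 48 h library for 48 members (65.8%), the grown-out library for 20 (27.4%) and the uninduced library for 5 (6.85%). Over all measured genes those shares were 33.8%, 38.1% and 28.1%.

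**Figure D2:**
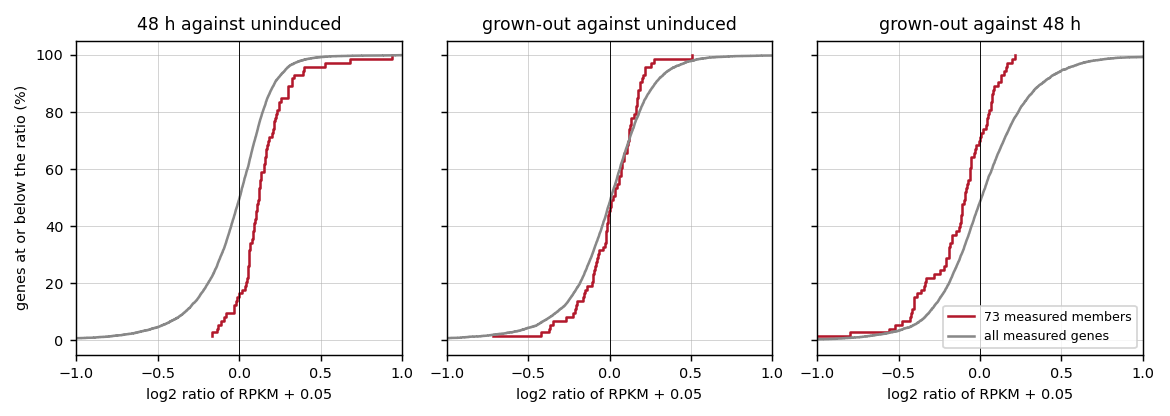
Cumulative share of genes (%) at or below a given log2 ratio of RPKM plus 0.05, for the 73 measured members (red) and all 7915 measured genes (grey), in the 3 comparisons between libraries. The red curve lies to the right of the grey one for 48 h against uninduced (medians 0.12 and 0.003), near it for grown-out against uninduced (0.02 and 0.008) and to its left for grown-out against 48 h (-0.09 and 0.009).

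Complex I, the NADH dehydrogenase, had a median log2 ratio of 0.10 at 48 h, 0.02 in grown-out cells, both against uninduced cells, and -0.08 in grown-out against 48 h cells. Its catalytic core, which binds NADH and the iron-sulfur clusters, had 6 measured genes and no called difference. Ndufv2 had 3.97 RPKM at 48 h against 3.54 RPKM in uninduced cells, 1.12-fold higher (1.07 to 1.17). Ndufs1, the largest core subunit, had 2.82 against 2.64 RPKM, 1.07-fold higher (1.03 to 1.12). Ndufs3 went the other way with 2.35 RPKM at 48 h against 2.65 RPKM in uninduced cells, 1.13-fold lower (1.04 to 1.22), and was at 2.63 RPKM in grown-out cells. Core genes Ndufv1 and Ndufs8 differed by less than counting error in all 3 comparisons.

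The accessory subunits of complex I held its larger differences. Ndufa1, a small membrane subunit encoded on the X chromosome, had 4.69 RPKM in uninduced, 7.55 RPKM in 48 h and 3.48 RPKM in grown-out cells. It was thus highest at 48 h, 1.61-fold above uninduced cells (1.27 to 2.04), and the grown-out level was 1.35-fold below the uninduced one (1.002 to 1.847) and 2.17-fold below the 48 h one (1.65 to 2.91). These values rest on 118, 180 and 71.5 reads. Ndufb8 had 10.3 RPKM at 48 h against 7.78 RPKM in uninduced cells, 1.32-fold higher (1.12 to 1.57), and 8.86 RPKM in grown-out cells, which differed from neither by more than counting error.

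Ndufc2, an accessory subunit of the membrane arm, was the member with the largest decrease against uninduced cells. Its level was 0.39 RPKM in grown-out cells, from 125 reads, against 0.67 RPKM in uninduced cells, from 265 reads, which was 1.73-fold lower (1.394 to 2.158). At 48 h it had 0.71 RPKM, so the grown-out library stood apart from both others, and it was 1.83-fold below the 48 h library (1.47 to 2.28). Ndufa13, known also as GRIM-19, had 1.25 RPKM in grown-out cells against 1.64 RPKM in uninduced cells, 1.31-fold lower (1.16 to 1.48) as a plain fold, and fell just short of a call because the pseudocount draws the log2 ratio toward 0. Ndufa2 had 1.25 RPKM and Ndufa3 1.43 RPKM in grown-out cells, against 1.77 and 1.91 RPKM at 48 h, and both were called lower in that comparison.

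Other accessory genes were higher at 48 h by smaller folds. Ndufa8 had 1.34 RPKM in uninduced, 1.66 RPKM in 48 h and 1.46 RPKM in grown-out cells, 1.24-fold higher at 48 h (1.13 to 1.36). Ndufa10 had 1.33, 1.55 and 1.55 RPKM, 1.17-fold higher than uninduced in both induced libraries. Ndufs4, whose model of 100300 bp was the longest among measured members, gathered 7117, 7293 and 5957 reads. It had 1.391, 1.502 and 1.426 RPKM. It was 1.08-fold higher at 48 h than in uninduced cells (1.05 to 1.12).

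Complex II, succinate dehydrogenase, joins the citric acid cycle to the respiratory chain and is built from nuclear genes alone. Sdha, its flavoprotein, had 2.01 RPKM in uninduced, 2.06 RPKM in 48 h and 2.26 RPKM in grown-out cells. Sdhc, a membrane anchor, had 1.64, 1.62 and 1.86 RPKM in the same order. Both were thus highest in grown-out cells, 1.13-fold above uninduced for Sdha (1.07 to 1.19) and for Sdhc (1.06 to 1.21). Sdhd, the other membrane anchor, had 3.12, 3.86 and 3.04 RPKM. It was highest at 48 h, 1.24-fold above uninduced (1.14 to 1.34), and grown-out cells were 1.27-fold below 48 h cells (1.17 to 1.38). Sdhb was 1.15-fold higher at 48 h than in uninduced cells (1.008 to 1.3). The 4 subunits of this complex therefore did not share 1 order of libraries.

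Complex III, the cytochrome bc1 complex, had a median log2 ratio of 0.19 at 48 h against uninduced cells, with all 8 genes above 0 and 5 of them (62.5%) beyond counting error, beside 30.1% of all measured genes. Uqcr10, a small membrane subunit, had 2.65 RPKM at 48 h, from 305 reads, against 1.83 RPKM in uninduced cells, from 221 reads, 1.45-fold higher (1.22 to 1.74). Uqcrfs1, the Rieske iron-sulfur protein, had 5.16 RPKM at 48 h against 4.11 RPKM in uninduced cells, 1.26-fold higher (1.16 to 1.37). Uqcrc2, a core protein, had 2.86 against 2.40 RPKM, 1.19-fold higher (1.13 to 1.25). In grown-out cells the same 3 genes were back at 1.97, 3.84 and 2.14 RPKM. Each was called lower than at 48 h (37.5% of the 8, beside 6.04% of all measured genes). Their folds were 1.35 (1.12 to 1.62) for Uqcr10, 1.34 (1.23 to 1.47) for Uqcrfs1 and 1.33 (1.26 to 1.41) for Uqcrc2. Against uninduced cells Uqcrc2 was then 1.12-fold lower (1.06 to 1.18). Uqcrc1, Uqcrb, Uqcrh, Uqcrq and Uqcr11 were within 1.3-fold in each comparison.

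Complex IV, cytochrome c oxidase, had the highest median log2 ratio at 48 h, 0.21, with 7 of 12 measured genes (58.3%) higher beyond counting error, beside 30.1% of all measured genes, and none called. Cox6b1 had 4.13 RPKM at 48 h against 3.26 RPKM in uninduced cells, 1.27-fold higher (1.18 to 1.36), and Cox8a had 7.53 against 5.99 RPKM, 1.26-fold higher (1.14 to 1.39). Cox4i1, which binds regulatory nucleotides, had 3.604 against 2.921 RPKM, 1.23-fold higher (1.13 to 1.35), and Cox5a had 5.76 against 4.82 RPKM, 1.195-fold higher (1.135 to 1.259). All 4 lay between these levels in grown-out cells, at 3.54, 6.97, 3.15 and 5.29 RPKM in that order of genes. Of the 12, Cox7c alone had a ratio below 0 at 48 h, within counting error.

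In grown-out against 48 h cells the ratio was below 0 for all 11 measured subunits of complex IV, leaving aside Cox7a2l, a relative of Cox7a2 known for supercomplex assembly, and 7 (63.6%) were beyond counting error, beside 32.0% of all measured genes. Cox7b had 12.6 RPKM in grown-out against 18.1 RPKM in 48 h cells, 1.44-fold lower (1.287 to 1.603). Cox7a2 had 4.79 against 6.35 RPKM, 1.33-fold lower (1.22 to 1.44), and Cox5b had 2.13 against 2.80 RPKM, 1.31-fold lower (1.077 to 1.603). These 3 were called, beside 6.04% of all measured genes called lower there. Against uninduced cells, Cox7b was 1.29-fold (1.16 to 1.44), Ndufa4 1.16-fold (1.09 to 1.23) and Cox7a2 1.15-fold (1.06 to 1.26) lower in grown-out cells. Ndufa4 is named for complex I but is a subunit of complex IV.

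Complex IV is the complex with the most tissue isoforms, and here the reads came almost wholly from the widely used form of each. Cox4i1 had 882, 1033 and 777 reads in uninduced, 48 h and grown-out cells, against 1, 2 and 0 reads for Cox4i2, the form of lung and hypoxia. Cox6a1 had 389, 429 and 363 reads, while Cox6a2, the form of heart and skeletal muscle, had 0 in each library. A count of 0 there allows at most 0.0631, 0.0665 and 0.0773 RPKM. Cox6b1 had at least 1353 reads in each library, while Cox6b2, the testis form, had 0, 3 and 0. Cox7a2 had at least 919 reads, while Cox7a1, the muscle form, had 5, 4 and 2.25. Cox7b2 had 1 read in all, in the 48 h library, and Cox8b and Cox8c had none. Ndufa4l2, a relative of Ndufa4 known to be induced in hypoxia, also had 0 reads in every library, which allows at most 0.0265, 0.0280 and 0.0325 RPKM. No switch between these isoforms was therefore detectable at this depth.

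Complex V, ATP synthase, had a median log2 ratio of 0.12 at 48 h, with 9 of 15 genes (60.0%) higher and none lower beyond counting error, beside 30.1% and 30.0% of all measured genes. The catalytic F1 part showed small differences. Atp5b had 7.34 RPKM at 48 h and 7.76 RPKM in grown-out cells, against 6.75 RPKM in uninduced cells, 1.09-fold (1.03 to 1.15) and 1.15-fold (1.09 to 1.22) higher. Atp5a1, the alpha subunit, had 5.86 and 5.49 RPKM against 5.23 RPKM, 1.12-fold (1.06 to 1.18) and 1.05-fold (0.990 to 1.11) higher. Atp5c1, the central gamma shaft, had 4.50 and 4.71 RPKM against 4.21 RPKM. The beta and gamma genes thus had their highest value in grown-out cells and the alpha gene at 48 h. In grown-out against 48 h cells the interval for beta included no change (fold 1.06, 0.998 to 1.12). There gamma was 1.05-fold higher (1.01 to 1.09) and alpha 1.07-fold lower (1.006 to 1.13).

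The c ring of ATP synthase turns in the membrane, and 3 genes encode the same mature protein with different targeting sequences. Their levels did not share 1 order of libraries. Atp5g1 had 2.76 RPKM in uninduced, 5.34 RPKM in 48 h and 3.94 RPKM in grown-out cells. This was 1.94-fold higher than uninduced at 48 h (1.55 to 2.43), the largest ratio of any measured member against uninduced cells, and 1.43-fold higher in grown-out cells (1.11 to 1.83). The values rest on 122, 224 and 142 reads. Atp5g2 had 6.28, 6.28 and 6.59 RPKM, level within counting error in every comparison. Atp5g3 had 5.16, 5.82 and 4.90 RPKM, 1.13-fold higher at 48 h (1.02 to 1.25) and 1.19-fold lower in grown-out than in 48 h cells (1.07 to 1.33).

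Of the other parts of ATP synthase, Atp5k, the small membrane subunit e, had the largest difference. It had 4.64 RPKM at 48 h, from 253 reads, against 3.52 RPKM in uninduced cells, from 202 reads, 1.32-fold higher (1.092 to 1.595). In grown-out cells it had 3.14 RPKM, 1.48-fold below 48 h cells (1.203 to 1.826) and not separable from uninduced cells. The stalk genes Atp5f1, Atp5h, Atp5j and Atp5o were within 1.3-fold throughout, Atp5f1 with 6.76, 7.31 and 6.39 RPKM from at least 4627 reads in each library. All told, 60 of the 73 measured members were called in none of the 3 comparisons and 13 in at least 1, a share of 17.8% beside 23.8% of all measured genes.

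**Figure D3:**
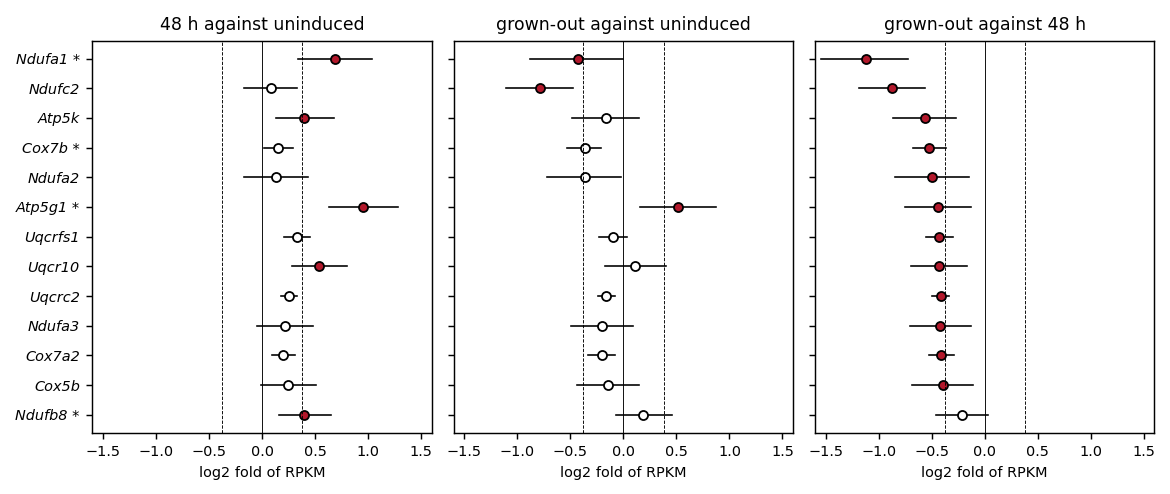
Log2 fold of RPKM with its 95% counting interval (bars) for the 13 members called in any comparison, in 3 panels, sorted by the ratio of grown-out against 48 h cells. Filled red points are called, open points are not, dashed lines mark 1.3-fold, and an asterisk marks a model whose deposited length is under 0.9 of its span; the 48 h panel has 5 filled points to the right and the last panel 12 to the left.

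Most of the called members had short models, and several had models cut short. Uqcrc2, called lower in grown-out than in 48 h cells, had a model of 24335 bp. The file headers give, beside each gene's span, a summed feature length over which reads were counted. For 7 members it was under 0.9 of the span, 6 of them measured: Atp5g1 (868 of 2902 bp), Atp5h (574 of 4223 bp), Cox7b (1001 of 6751 bp), Ndufa1 (493 of 3650 bp), Ndufb8 (641 of 5162 bp) and Ndufb11 (853 of 2239 bp). Each of these 6 overlaps a model spanning over 3 Mb on the same strand, and which bases were left is not given in the sources used here. Their median log2 ratio was 0.28 at 48 h against uninduced cells, 0.00 in grown-out against uninduced and -0.32 in grown-out against 48 h cells. Over all 82 measured genes with so reduced a length and under 1500 bp, the medians were 0.09, -0.06 and -0.08. Without members of reduced length or overlap, the 48 h library had 2 called members in place of 5, Uqcr10 and Atp5k, and a median ratio of 0.11.

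By length, the 16 measured members of 300 to 3000 bp had median ratios of 0.21, -0.08 and -0.32 in the 3 comparisons, and all 5 calls at 48 h (31.2% of them, beside 6.31% of all measured genes of that length). The 650 measured genes of that length had -0.02, -0.07 and -0.02. For the 50 members under 10000 bp the medians were 0.13, -0.01 and -0.11, beside -0.03, -0.04 and -0.01 for all 2218 such genes. Of those 50, 5 were called higher and none lower at 48 h (3.92% and 12.4% of all genes that short), 1 higher and 2 lower in grown-out against uninduced cells (6.63% and 13.7%), and none higher and 11 lower in grown-out against 48 h cells (12.8% and 10.7%). Beyond counting error the numbers higher and lower were 20 and 0 (16.1% and 24.7%), 6 and 8 (18.6% and 26.5%) and 1 and 21 (24.7% and 24.1%) in the same order of comparisons. The higher median at 48 h was also found among the longer members. It was 0.11 for the 13 of 10000 to 20000 bp and 0.10 for the 10 longer ones, against -0.01 and 0.02 over all measured genes of those lengths. In grown-out against 48 h cells the medians were -0.09 for the 13 and -0.02 for the 10, against 0.03 and 0.02. Of those 10 members, 5 had a ratio above 0 there and 5 below. The part of model length in the ratios was not tested.

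**Figure D4:**
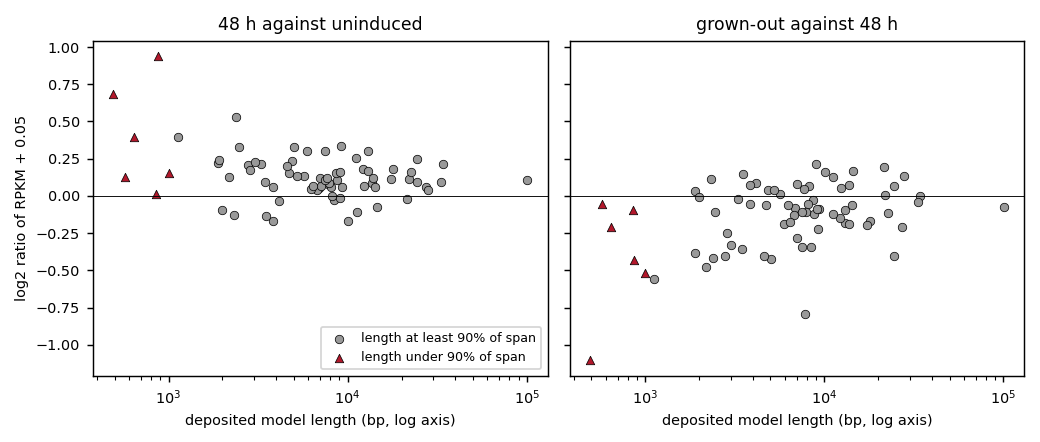
Log2 ratio of RPKM plus 0.05 of each measured member against the deposited length of its gene model (bp, log axis), for 48 h against uninduced and for grown-out against 48 h; red triangles are models with a length under 0.9 of the span. Ratios past 1.3-fold at 48 h occur only in models under 3000 bp, while most longer models lie between 0 and 0.35.

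Of the 13 members that were not measured, 8 were the tissue isoforms with 5 reads or fewer in each library. Ndufs7 of the complex I core had 0.38, 0.38 and 0.44 RPKM in uninduced, 48 h and grown-out cells, and Ndufa11 had 0.38, 0.50 and 0.41 RPKM. Atp5s had 0.31, 0.31 and 0.25 RPKM and Atp5sl 0.28, 0.30 and 0.21 RPKM, neither being a subunit. Ndufs5 could not be measured, since its deposited length was 25 of a span of 5477 bp.

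Genes that work beside the subunits are given for comparison. Cytochrome c, Cycs, had 5.90 RPKM in uninduced, 7.56 RPKM in 48 h and 6.38 RPKM in grown-out cells, so like the members' median it was highest at 48 h. Cyc1, the cytochrome c1 subunit of complex III that the name rule misses, had 1.15, 1.44 and 1.53 RPKM and was called higher in grown-out than in uninduced cells. Usmg5, a small ATP synthase subunit also outside the rule, had 41.1, 60.7 and 37.4 RPKM over a reduced length of 341 bp, called higher at 48 h and called lower in grown-out than in 48 h cells. Of 24 measured assembly factors, 8 were higher and 1 lower beyond counting error at 48 h (33.3% and 4.17%, beside 30.1% and 30.0% of all measured genes), with a median of 0.08. Cox17, a copper chaperone of complex IV, was the assembly factor called lower in grown-out cells, with 2.20 RPKM against 3.48 RPKM in uninduced cells.

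For the citric acid cycle the median log2 ratio was 0.17 at 48 h and 0.12 in grown-out cells, each against uninduced cells. Of 16, 10 were higher and 3 lower beyond counting error at 48 h (62.5% and 18.8%, beside 30.1% and 30.0% of all measured genes). After grow-out 10 were higher and none lower (62.5%, beside 33.6% and 29.5%), all within 1.3-fold. Mdh2, malate dehydrogenase, had 2.51 RPKM at 48 h against 1.96 RPKM in uninduced cells. Idh3a had 3.92 RPKM at 48 h and 4.22 RPKM in grown-out cells against 3.35 RPKM. Whether this list differs from the subunit genes was not tested.

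Of 12 measured regulators of these genes, set against uninduced cells and beyond counting error, 2 (16.7%) were higher and 3 lower at 48 h, beside 30.1% and 30.0% of all measured genes. After grow-out 8 were higher and none lower (66.7%, beside 33.6% and 29.5%). Pprc1, a co-activator of the PGC-1 family, had 5.77 RPKM in grown-out cells against 3.94 RPKM in uninduced cells and was called higher. Ppargc1a had 1.00 RPKM in both induced libraries against 0.82 RPKM in uninduced cells, and Ppargc1b was not measured, at 0.0299 RPKM or less. Nrf1 had 3.10, 2.78 and 3.07 RPKM in uninduced, 48 h and grown-out cells, Gabpa 2.13, 2.02 and 2.17 RPKM and Esrra 1.03, 0.97 and 1.31 RPKM. All 3 were thus lowest at 48 h, Nrf1 beyond counting error against uninduced cells and Gabpa and Esrra within it. Of 10 genes of mitochondrial DNA expression, 1 was higher and 3 lower beyond counting error at 48 h (10.0% and 30.0%, beside 30.1% and 30.0% of all measured genes). Polg2 was called lower, as 7.63% of all genes were, and Tfam had 2.46, 2.44 and 2.12 RPKM.

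**Figure D5:**
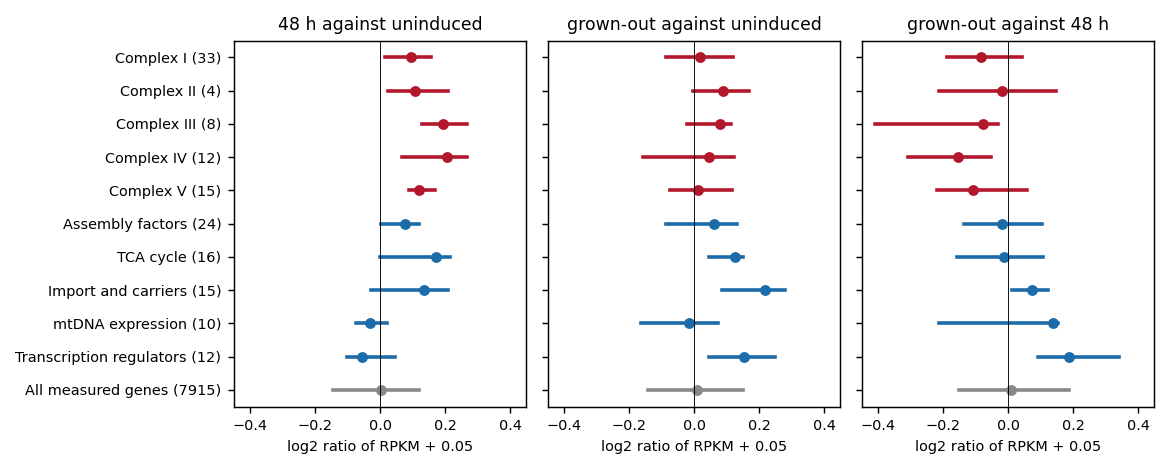
Median (point) and interquartile range (bar) of the log2 ratio of RPKM plus 0.05 for the subunit genes by complex (red), other mitochondrial gene lists (blue) and all measured genes (grey), with the number of measured genes in brackets, in the 3 comparisons. For 48 h against uninduced the medians of complexes I to V lie between 0.10 and 0.21; for grown-out against uninduced they lie between 0.01 and 0.09.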

How the data were processed

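Newly made RNA of the NB490 line was measured in 3 Bru-seq libraries, 1 per condition, grouped by the labels. The deposited files hold, per the file headers, estimated counts of reads per whole gene model (introns included, 47.3% to 48.5% of counts above 0 being whole within 0.01 of a read) and RPKM, reads scaled by the deposited length and the library total; a deposited signal of reads per base was not needed. Tools named in the submitters' processing notes were bedtools 2.16.2, TopHat 1.4.1, Bowtie 0.12.8 and CASAVA 1.8.2. The notes also name the human build hg19, although the models carry mouse symbols. The deposited coordinates are therefore not printed, and only promoter coordinates from RefSeq, build GRCm38.p6, are. How reads that fit several places were treated is not given in the sources used here, and many subunit genes have processed copies elsewhere in the genome, so reads could be shared with them.

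Models with a repeated symbol or a span over 3 Mb were left out (138 models). Ratios on the log2 scale used RPKM with 0.05 added to each value, so differences of weakly transcribed genes come out too small. The fold of RPKM, with nothing added, has an exact conditional binomial 95% interval (Clopper-Pearson) from counts rounded to whole reads, and levels have exact Poisson 95% intervals. Intervals cover counting error only, since reads were not counted by molecular identifiers and nothing covers variation between cultures. A gene was called where the log2 ratio passed 1.3-fold and the interval excluded no change. A count of 0 was taken to allow 3 reads. The fold and call were checked on simulated whole counts. These were drawn as Poisson counts, as the intervals assume, so the check covers neither variation between cultures nor fractional counts. Alternatives covered library scaling (TMM in edgeR 4.0.16, median of ratios in DESeq2 1.42.0, used for scaling only), pseudocount, minimum level and length, overlap and fold. Calculations used Python 3.11.15, numpy 2.4.6, pandas 2.3.3 and scipy 1.17.1, and R 4.3.3.

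The members and gene lists were chosen with earlier results of these data known. Members are described in full where called, where among the 5 highest or 5 lowest by mean RPKM, and for isoform pairs and complex II; from each other list up to 4 genes with the largest ratio beyond counting error against uninduced cells were eligible, plus Cycs, Cyc1, Pprc1, Ppargc1a, Ppargc1b, Esrra, Nrf1, Gabpa and Tfam. The values of 1 member are not reported here. Further members named in the text were chosen after their values were seen.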

Additional observations from a re-analysis of the deposited data

How the results depend on the processing

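The median log2 ratio of the measured members kept its sign under all 8 alternatives run on it: 0.10 to 0.14 for 48 h against uninduced, 0.008 to 0.058, around 0.02 as reported, for grown-out against uninduced, and -0.11 to -0.067 for grown-out against 48 h cells. TMM and DESeq2 scaling put the median of all genes at no more than 0.049, and under DESeq2 the split of all genes for grown-out against uninduced was 6.27% higher and 5.83% lower in place of 4.6% and 7.3%. Counts of called members depended on the settings. The 5 members higher at 48 h became 0 with models of at least 3000 bp, 2 without models of overlap or reduced length, 11 at 1.2-fold, 2 at 1.5-fold and 0 at 2-fold, where 1.42%, 1.62%, 5.84%, 0.379% and 0.0253% of all genes were higher. With a pseudocount of 0.5 RPKM they became 4, beside 0.644% of all genes. The 1 higher in grown-out against uninduced cells became 0 with models of at least 3000 bp, without overlap or reduced length, at 1.5-fold and at 2-fold (all genes 4.05%, 4.5%, 1.07% and 0.164%). The 2 lower there became 1 under TMM, DESeq2, a mean of at least 2 RPKM, at least 3000 bp, no overlap or reduced length, and 1.5-fold (all genes 6.37%, 5.83%, 5.29%, 6.35%, 6.44% and 2.93%); they became 6 at 1.2-fold and 0 at 2-fold (12.0% and 0.708%). The 12 lower in grown-out against 48 h cells became 6 with a pseudocount of 0.5 RPKM, 4 with at least 3000 bp, 17 at 1.2-fold, 2 at 1.5-fold and 1 at 2-fold (all genes 2.93%, 5.29%, 12.4%, 2.25% and 0.316%). They became 11 under TMM, 10 under DESeq2 and 13 of 81 with no minimum RPKM (all genes 5.45%, 5.18% and 7.96%). With a mean of at least 2 RPKM, and without overlap or reduced length, 9 were lower (all genes 3.58% and 5.29%). Fewer members were tested with a mean of at least 2 RPKM (45), the longer minimum length (57) and without overlap (66). Apart from that the cause was not tested. Leaving out the 3 names that encode no subunit changed no count; this alternative and the comparison with genes under 10000 bp were chosen after seeing the data.

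Depth limits what can be seen: the median half-width of a member's counting interval was 0.13 to 0.14 on the log2 scale, which bears on single members. No paired analysis was possible because each condition had 1 library and the groups share fewer than 2 replicate numbers. Without replicates, a difference between cultures cannot be told apart from one between conditions.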

Other observations

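Some subunit genes start next to a gene on the other strand, and how often other genes do was not counted. A neighbour with its start within 1000 bp, reading away from the member, was found for 22 members, and both genes were measured in 13 pairs. Sdhd and Timm8b, a chaperone of mitochondrial import, start 51 bp apart. Timm8b had 2.34 RPKM in uninduced, 3.68 RPKM in 48 h and 1.95 RPKM in grown-out cells, so that like Sdhd it was highest at 48 h, 1.57-fold above uninduced (1.29 to 1.92), and grown-out cells were 1.89-fold below 48 h cells (1.51 to 2.38). At 48 h the ratios of both genes had the same sign in 6 of the 13 pairs. Ndufs3, the one member lower beyond counting error at 48 h, starts 64 bp from Kbtbd4, which was 1.46-fold higher there (1.21 to 1.75), with 0.98 against 0.67 RPKM. Ndufs1 starts 8 bp from Eef1b2, a translation elongation factor, which had 10.9 RPKM at 48 h against 12.8 RPKM in uninduced cells, 1.17-fold lower (1.10 to 1.25), while Ndufs1 was 1.07-fold higher. Cox4i1 and Cox4nb, whose starts are 177 bp apart, had log2 ratios of 0.30 and 0.06 at 48 h. Over the 13 pairs the median ratio at 48 h was 0.09 for the members and -0.06 for the partners.

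Of 15 measured genes of mitochondrial import and carriers, 9 were higher and 1 lower beyond counting error at 48 h against uninduced cells (60.0% and 6.67%, beside 30.1% and 30.0% of all measured genes), with a median log2 ratio of 0.14. In grown-out against uninduced cells 12 were higher and 1 lower (80.0% and 6.67%, beside 33.6% and 29.5%), with a median of 0.22, and 1 was called higher (6.67%, beside 4.6%). Vdac1, an outer membrane channel, had 3.11 RPKM in uninduced, 3.74 RPKM in 48 h and 4.05 RPKM in grown-out cells. Timm50, of the inner membrane translocase, had 1.09, 0.96 and 1.48 RPKM and was the one called. Timm17a, of the same translocase, had 3.17, 3.91 and 2.95 RPKM, highest at 48 h. Whether this list differs from the subunit genes was not tested.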
